A study of Mus musculus with 2 samples.

Results

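The miR-181 family of the mouse consists of 6 microRNA genes in 3 clusters of 2 hairpins each, and its reads were followed here in the embryonic limb. The members were taken by symbol as Mir181a-1, Mir181b-1, Mir181a-2, Mir181b-2, Mir181c and Mir181d, and all 6 were found among the 1973 gene rows of the count tables. The samples were whole limbs of B6NCrl mice at 12.5 days of embryonic development, healthy and without any treatment, with male and female embryos pooled. The labels give 1 group with 2 biological replicates, from pools of 88 embryos (replicate 1) and 68 embryos (replicate 2), and sequencing covered RNA shorter than 30 nucleotides. With 1 group there is no comparison of conditions, so levels, their spread between the 2 pools and the relations among the 3 clusters are described. A pool of whole limbs does not tell which cells held a microRNA, and fewer cells of a type cannot be told apart from less RNA per cell.

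A microRNA is cut from a hairpin precursor, which can yield a mature RNA from its 5′ arm (5p) and another from its 3′ arm (3p). The mature RNA guides Argonaute to messenger RNAs mainly through its seed, bases 2 to 8, so microRNAs with the same seed share many predicted targets. miR-181a is known for tuning T cell receptor sensitivity in developing lymphocytes, miR-181b for restraining NF-κB signalling in endothelium, and miR-181 also rises during myoblast differentiation, where the limb patterning gene Hoxa11 is a known target.

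The mature 5p sequences of the family show which members share a seed and which cannot be told apart by sequence. They are given 5′ to 3′ from RefSeq (GRCm38.p6), with the seed in capitals, and the first 2 each come from a pair of genes.
miR-181a-5p (Mir181a-1 and Mir181a-2): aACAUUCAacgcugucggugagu
miR-181b-5p (Mir181b-1 and Mir181b-2): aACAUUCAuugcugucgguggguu
miR-181c-5p (Mir181c): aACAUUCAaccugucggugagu
miR-181d-5p (Mir181d): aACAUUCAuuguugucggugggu
All 6 genes carry the seed ACAUUCA on the 5p arm, and none of the other mature sequences in the RefSeq table, which holds 1738 mature sequences, has it. Outside the seed, with positions counted from 1 at the 5′ end of the first-named RNA, miR-181a-5p and miR-181b-5p differ by A9U, C10U and A21G and by 1 base of length. miR-181c-5p differs from miR-181a-5p by the loss of 1 base, and miR-181d-5p differs from miR-181b-5p by C12U and by the lack of 1 base.

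The 3p sequences, by contrast, separate every gene from every other. They are shown with bases 2 to 8 in capitals because they tell apart the genes with the same 5p RNA.
miR-181a-1-3p: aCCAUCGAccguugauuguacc
miR-181a-2-3p: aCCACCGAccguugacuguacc
miR-181c-3p: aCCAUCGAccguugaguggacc
miR-181b-1-3p: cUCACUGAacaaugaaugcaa
miR-181b-2-3p: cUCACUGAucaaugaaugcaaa
miR-181d-3p: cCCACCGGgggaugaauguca
The 3p RNAs of the miR-181a genes differ by U5C and U16C, of which U5C lies in bases 2 to 8. miR-181a-1-3p keeps the same bases 2 to 8 as miR-181c-3p, from which it differs by U16G and U19G. The 3p RNAs of the miR-181b genes differ by A9U and 1 base of length and share bases 2 to 8.

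These identities bear on the counts, since the deposited tables set apart reads that mapped to several places. That row held 27.2% of all reads in replicate 1 and 23.7% in replicate 2, and how many of these came from the family was not tested. Every 20-base window of the 5p RNA of Mir181a-1, Mir181a-2, Mir181b-1 and Mir181b-2 recurred in another annotated hairpin, namely 4 of 4 windows in each miR-181a gene and 5 of 5 in each miR-181b gene. For Mir181c and Mir181d, 0 of 3 and 0 of 4 windows of the 5p RNA recurred. None of the 3p windows of any member did. The longest stretch common to the miR-181a hairpins has 28 bases, shown with the mature RNA in capitals, and runs 1 base before and 4 bases past it.
Mir181a-1 and Mir181a-2: gAACAUUCAACGCUGUCGGUGAGUuugg
Mir181b-1 and Mir181b-2: ucAACAUUCAUUGCUGUCGGUGGGUU
The stretch of the miR-181b hairpins has 26 bases and ends with the last base of the mature RNA, so a read running 1 base past it can differ between these genes. Each count covers a whole hairpin and the arms were not counted apart. Levels given here are those of reads assigned to 1 place. A read lying within a shared stretch matches both genes alike, so the levels of the miR-181a and miR-181b genes leave out their exact 5p RNA. The levels of Mir181c and Mir181d can include theirs.

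**Figure D1:**
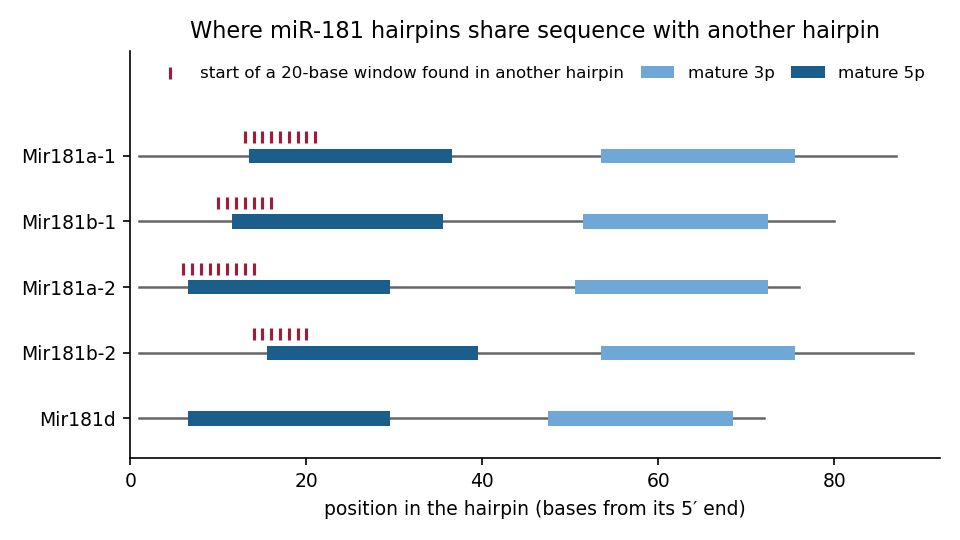
Hairpins of the 5 members with a hairpin sequence in the RefSeq table, drawn by position from the 5′ end in bases, with the mature 5p and 3p arms as bars and a tick at the start of each 20-base window found in another annotated hairpin. The ticks fall on and just before the 5p arms of the miR-181a and miR-181b genes, and Mir181d has 0 ticks.

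In reads assigned to 1 place, Mir181c and Mir181d were the highest members of the family in the limb, and Mir181b-1 was the lowest. Only the counts of Mir181c and Mir181d can hold their exact 5p RNA, so this order does not rank the genes by 5p RNA. All 6 members reached 10 CPM (own-strand counts scaled to the library's total on microRNA genes) in both libraries, as 286 of the 1973 genes did. Together they held 1.89% of the gene counts in replicate 1 (95% Clopper-Pearson interval 1.87 to 1.90) and 1.63% in replicate 2 (1.61 to 1.64), or 1.76% ± 0.18 (SD, n = 2). The libraries held 4525636 and 3604284 gene counts, so 1 count was worth 0.221 CPM in replicate 1 and 0.277 CPM in replicate 2. These intervals cover counting error only, and they treat reads as independent, which amplified reads are not. On the opposite strand of the 6 genes lay 0 counts in both libraries, which allows up to 3 counts per gene, or 0.663 CPM in replicate 1 and 0.832 CPM in replicate 2.

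The pair on chromosome 8 (mm10, minus strand) lies in an intron of a transcript of Nanos3, a gene of germ cell development, on the same strand. Mir181c (84178873 to 84178961) stood at 6511 CPM in replicate 1 and 5551 CPM in replicate 2, a mean of 6031 ± 679 (SD, n = 2), at rank 37 of all genes. Mir181d (84178716 to 84178787), 85 bases downstream, stood at 6575 CPM and 5478 CPM, a mean of 6027 ± 776, at rank 38. Both members were somewhat lower in replicate 2, and their values interleaved. Their order was not resolved, since Mir181d was higher in replicate 1 and Mir181c in replicate 2. Levels were not divided by hairpin length because a read covers a whole mature RNA. Divided by it, an alternative chosen after the counts were seen, Mir181d led in both libraries, at 91.3 against 73.2 CPM per base in replicate 1 and 76.1 against 62.4 in replicate 2.

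The pair on chromosome 2 (plus strand) lies in an intron of the nuclear receptor gene Nr6a1, on the strand opposite to it. Mir181a-2 (38852735 to 38852810) stood at 664 CPM in replicate 1 and 1169 CPM in replicate 2, a mean of 917 ± 357. Mir181b-2 (38853830 to 38853918), 1019 bases downstream, stood at 2932 CPM and 1910 CPM, a mean of 2421 ± 723. Mir181b-2 was thus the higher of the pair in both libraries, but the gap between them narrowed in replicate 2. Mir181b-2 also overlaps an exon of Gm44144 on the other strand, which the annotation marks as awaiting experimental proof.

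The pair on chromosome 1 (plus strand) lies in an intron of the long non-coding RNA gene Gm4258 on the same strand. Mir181b-1 lies wholly, and the 3′ end of Mir181a-1 in part, within an exon of the non-coding RNA gene A430106G13Rik. Mir181a-1 (137966455 to 137966541) stood at 2142 CPM in replicate 1 and 2123 CPM in replicate 2, a mean of 2132 ± 14, the smallest spread of the family. Mir181b-1 (137966639 to 137966718), 97 bases downstream, stood at 39.6 CPM and 26.6 CPM, a mean of 33.1 ± 9.1, from 179 and 96 counts. Of the 6 members, Mir181b-1 alone lay below 100 CPM in the mean.

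In order of mean level, the members ran Mir181c, Mir181d, Mir181b-2, Mir181a-1, Mir181a-2 and Mir181b-1. Mir181d was 2.24-fold above Mir181b-2 in replicate 1 and 2.87-fold above it in the other library, and their ranges did not overlap. Mir181b-2 and Mir181a-1 were not resolved, since Mir181b-2 was 1.37 times Mir181a-1 in replicate 1 and 0.900 times in replicate 2. Mir181a-1 exceeded Mir181a-2 by 3.22 and 1.82 times, and Mir181a-2 exceeded Mir181b-1 by 16.8 and 43.9 times. The members thus fell on 4 levels that held in both libraries, with a pair of members sharing each of the upper 2.

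**Figure D2:**
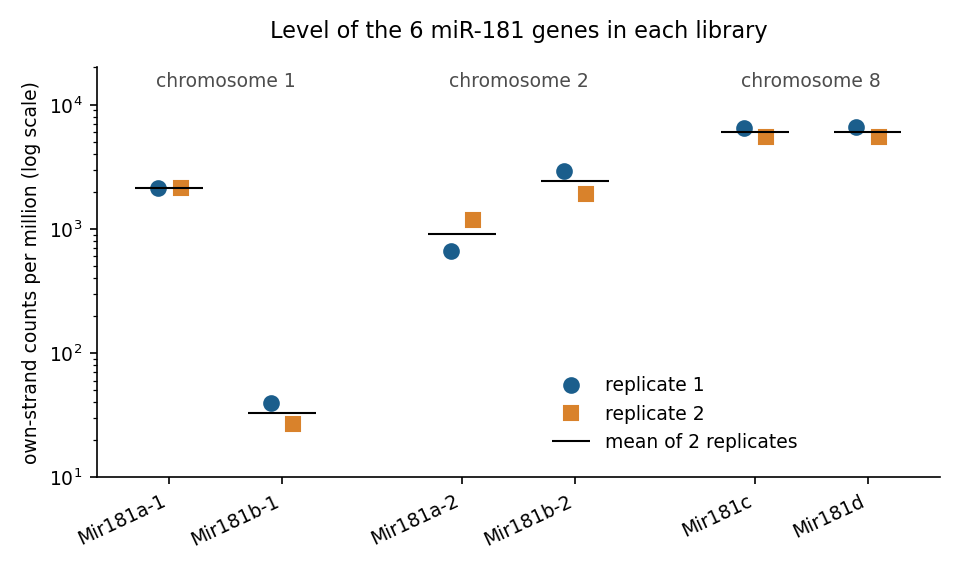
Level of each member in replicate 1 (circles) and replicate 2 (squares) in CPM on a log axis, with the mean as a line and the members grouped by chromosome. Mir181c and Mir181d sit between 5478 and 6575 CPM, and Mir181b-1 lies lowest at 39.6 and 26.6 CPM.

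The cluster of Mir181c and Mir181d supplied most of the family's assigned reads. It held 69.4% of the family's counts in replicate 1 (95% interval 69.1 to 69.7) and 67.8% in replicate 2 (67.5 to 68.2). The cluster of Mir181a-2 and Mir181b-2 held 19.1% (18.8 to 19.3) and 18.9% (18.6 to 19.3), and that of Mir181a-1 and Mir181b-1 held 11.6% (11.4 to 11.8) and 13.2% (12.9 to 13.5). The order of the 3 clusters was the same in both libraries. The leading cluster is also the one whose 5p RNAs recur in no other hairpin, and the part of that difference in the order was not tested. The share of the pair on chromosome 2 in the family's counts moved by little between the libraries, although its members moved by more than 1.5 times each. In all gene counts, the share of this pair fell from 0.360% in replicate 1 to 0.308% in replicate 2, as the family's fell from 1.89% to 1.63%.

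Within the clusters, the balance of the first and the second hairpin in reads assigned to 1 place differed from 1 cluster to another. For the miR-181a and miR-181b genes, these reads leave out the exact mature RNA shared between genes. For Mir181c and Mir181d they can include all mature RNA. The balances were thus not taken on like reads, and the part of this in their difference was not tested. Mir181c held 49.8% of its cluster in replicate 1 (95% interval 49.4 to 50.2) and 50.3% in replicate 2 (49.8 to 50.8), an even balance in both. Mir181a-1 held 98.2% of its cluster (97.9 to 98.4) and 98.8% (98.5 to 99.0), so it exceeded Mir181b-1 by 54.2 and 79.7 times. Mir181a-2 held 18.5% (17.9 to 19.1) in replicate 1 and 38.0% (37.1 to 38.9) in replicate 2, so its cluster leaned to the second hairpin in both libraries but by 4.41 times in the first and 1.63 times in the other. In both clusters with miR-181a and miR-181b the miR-181a hairpin comes first. In these reads, yet, it was the higher one on chromosome 1 and the lower one on chromosome 2. This order does not rank the hairpins by all the mature RNA they yield.

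**Figure D3:**
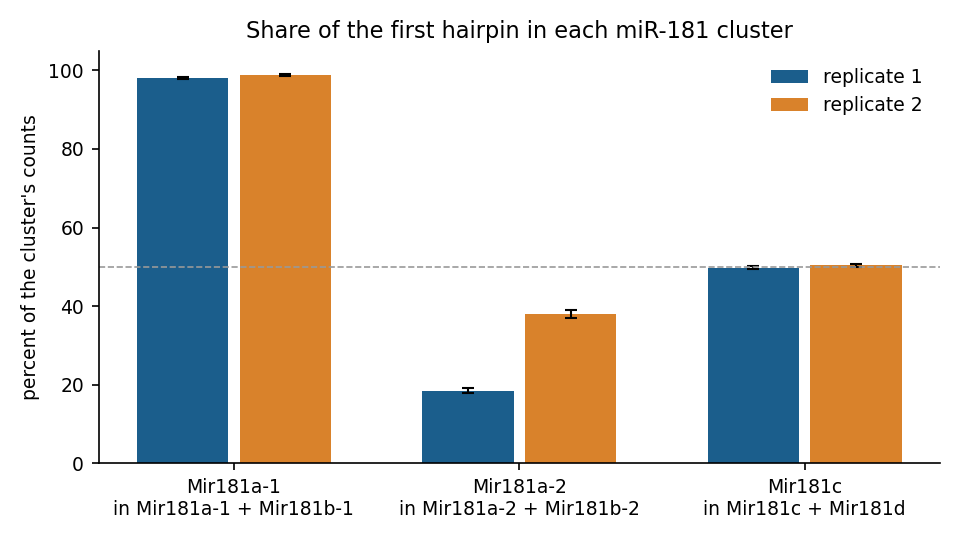
Share of the first hairpin in the counts of each cluster, in percent, for replicate 1 and replicate 2, with 95% Clopper-Pearson intervals and a dashed line at 50%. Mir181c stands at 49.8% and 50.3%, Mir181a-1 at 98.2% and 98.8%, and Mir181a-2 at 18.5% and 38.0%. The counts behind the Mir181a-1 and Mir181a-2 shares leave out the exact mature RNA shared between genes. Those behind the Mir181c share can include all mature RNA.

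The genes with the same 5p RNA were also unequal in reads assigned to 1 place, which leave out that shared RNA itself. Mir181b-2 was 74.1-fold above Mir181b-1 in replicate 1 and 71.7-fold above it in the other library, so this difference was close to equal in both libraries. For miR-181a the gene on chromosome 1 was the higher one, by 3.22 and 1.82 times. The summed level of the miR-181a genes was 2806 CPM in replicate 1 and 3292 CPM in replicate 2, and that of the miR-181b genes 2972 and 1937 CPM. The summed levels were not ordered the same way in the libraries, with the miR-181b genes higher in replicate 1 and the miR-181a genes in replicate 2. These sums leave out any read set apart as mapping to several places, so they do not measure miR-181a-5p or miR-181b-5p.

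Between the libraries, the members of 1 cluster moved in opposite directions, those of another moved together, and Mir181a-1 differed by 1.01 times. Ratios are given as log2 of replicate 2 over replicate 1 with 0.5 counts added, each with a standard error (SE) from counting alone. Mir181a-2 had a log2 ratio of 0.82 (SE 0.034) and Mir181b-2 of -0.62 (SE 0.021), or 1.76 times up and 1.54 times down. Mir181c stood at -0.23 (SE 0.013) and Mir181d at -0.26 (SE 0.013). Mir181b-1 stood at -0.57 (SE 0.18) and Mir181a-1 at -0.01 (SE 0.022). Among the 189 genes whose mean reached 100 CPM, 5 had a ratio at or above that of Mir181a-2, itself included, and 3 a ratio at or below that of Mir181b-2, itself included. The median size of the log2 ratio was 0.26 in the 5 members among them and 0.18 in all 189 genes.

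A two-sided exact binomial test of each gene's pair of counts, which compares these libraries and no conditions, called 5 of the 6 members at a Benjamini-Hochberg adjusted p under 0.05. The same test called 41.7% of the 436 genes tested, and 74.1% of the 189 genes at 100 CPM or more, where 4 of 5 members were called. Lower in replicate 2 were 4 members (Mir181b-1, Mir181b-2, Mir181c and Mir181d), against 21.3% of all genes tested, and higher was Mir181a-2, against 20.4%. These shares cover all 436 genes, where calls were rarer than at 100 CPM or more, and were not taken by direction at that level. The adjusted p of this test was 7.31e-125 for Mir181a-2, 1.32e-188 for Mir181b-2 and 0.00471 for Mir181b-1, and 0.691 for Mir181a-1. The opposite ratios of Mir181a-2 and Mir181b-2 were known from earlier results on these data, so their p-values are no independent support. The calls count reads as independent and so follow depth. With the spread between the replicates included, edgeR's negative binomial exact test called 0 of 436 genes (0.0%) and 0 members, with 25 genes at an unadjusted p under 0.05, among them Mir181a-2 as the only member (unadjusted p 0.0146, adjusted p 0.398). Its adjusted p was 0.942 for Mir181b-2 and 0.956 for Mir181b-1. The biological coefficient of variation in that fit, the spread beyond counting error, was 16.4%, estimated from the same 2 libraries. The spread thus holds the very differences tested, and only genes that differ far more than most could be called. The lack of calls does not show equal levels.

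**Figure D4:**
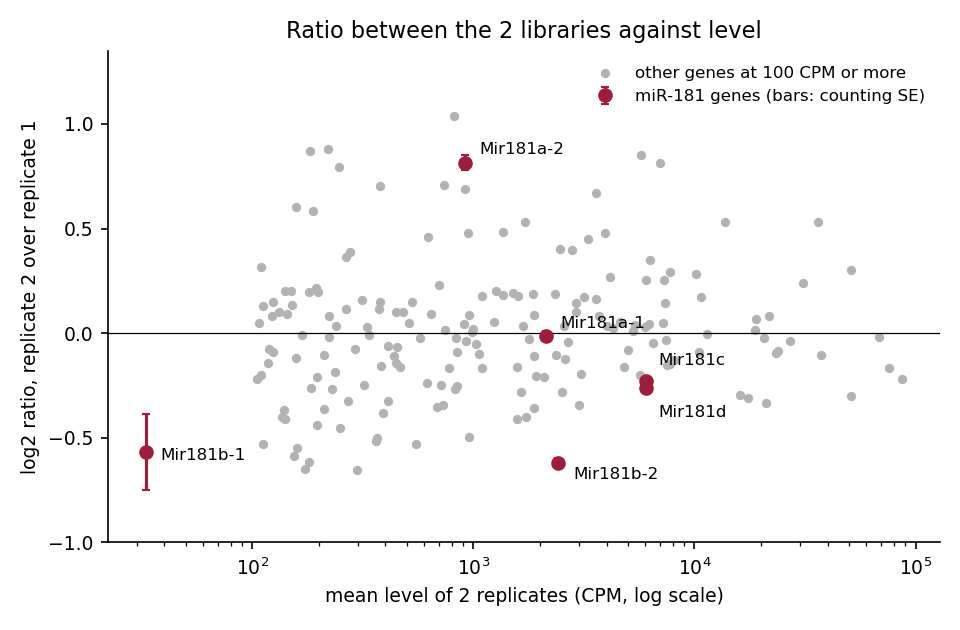
Log2 ratio of replicate 2 over replicate 1 against the mean level in CPM (log axis), for the 6 members with their counting SE and for the other genes at 100 CPM or more in grey. Mir181a-2 lies at 0.82 near the upper edge and Mir181b-2 at -0.62 near the lower edge of the grey points.

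The opposite ratios of Mir181a-2 and Mir181b-2 were set beside those of all other neighbours, since hairpins of 1 cluster are often transcribed together. Adjacent genes on the same strand, at most 10 kb apart and both at 100 CPM or more, formed 53 pairs, with a median difference in log2 ratio of 0.21. The pair Mir181a-2 and Mir181b-2 had a difference of 1.43, the largest of the 53. Next came Mir362 and Mir501 on the X chromosome at 1.07, then Mir493 and Mir337 at 1.04 and Mir673 and Mir493 at 0.95, both on chromosome 12. Mir181c and Mir181d differed by 0.03, at place 50 of 53. Neighbours with ratios of opposite sign were common, in 19 of the 53 pairs, but 39 pairs differed by less than 0.5. With genes from 10 CPM, which brings in Mir181a-1 and Mir181b-1, there were 89 pairs with a median of 0.29, and that pair stood at place 21 with 0.55. This ranking is a description of 2 libraries, and the pair on chromosome 2 was known from earlier results on these data to have opposite ratios.

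**Figure D5:**
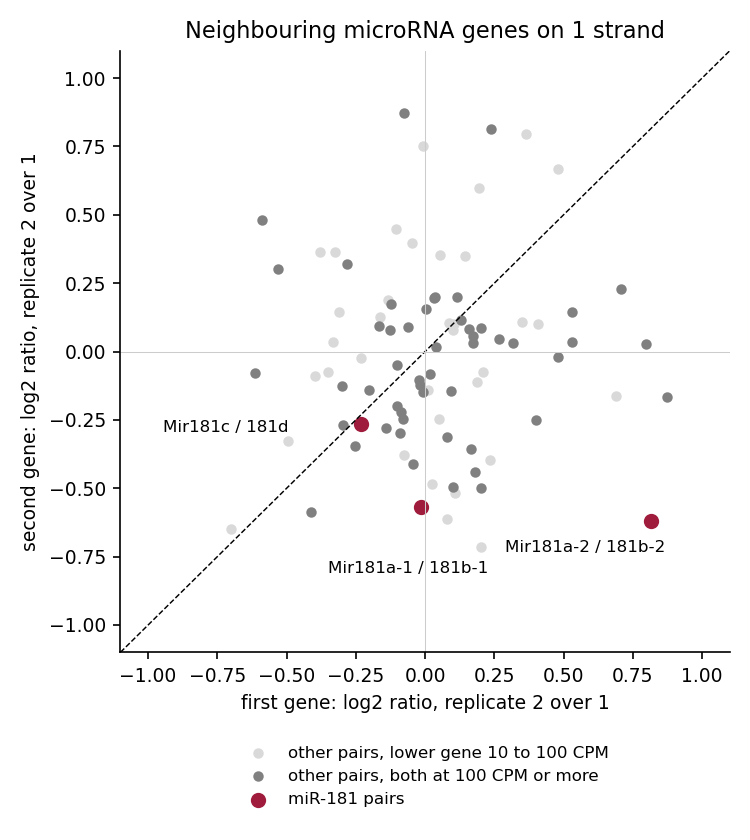
Log2 ratio of replicate 2 over replicate 1 of the second gene against that of the first, in the direction of transcription, for 89 pairs of neighbours on 1 strand within 10 kb, with the diagonal of equal ratios dashed. The pair Mir181a-2 and Mir181b-2 lies farthest from the diagonal (0.82 and -0.62), and Mir181c and Mir181d lie close to it (-0.23 and -0.26).

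For each member, the gene outside the family most like it in level was found by the distance of log2(CPM + 1) over the 2 libraries. Family members were left out of this search. Mir181c (6511 and 5551 CPM) and Mir181d (6575 and 5478 CPM) lay closer to each other than to any gene found. Outside the family, nearest to both Mir181c and Mir181d was Mir30a (5666 ± 552 CPM, distances of 0.13 and 0.13). Nearest to Mir181a-1 was Mir708 (2094 ± 214 CPM, distance 0.14) and to Mir181b-2 Mir541 (2520 ± 346 CPM, distance 0.27). Mir181a-2 was nearest to Mir323 of chromosome 12 (920 ± 305 CPM, distance 0.09). The log2 ratio of Mir323 was 0.69, but a search over both libraries picks genes of a like ratio by design. Mir181b-1 was nearest to Mir29a (35.4 ± 9.99 CPM, distance 0.13). With 2 libraries, such likeness is one of level and of a single ratio.

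Marker microRNAs of the cell types and tissues a limb sample can hold were present at different levels. Limb mesenchyme and cartilage markers were detected in 6 of 6 genes and summed to 74494 CPM in replicate 1 and 83841 CPM in replicate 2, and ectoderm markers in 7 of 7, at 18586 and 18972 CPM. The endothelial Mir126a stood at 18526 and 19409 CPM, close to the family's sum of 18864 and 16258 CPM. Skeletal muscle markers were detected in 4 of 7 genes with a row, at 2321 and 2605 CPM, with both Mir133a genes at 0 counts. White blood cell markers were detected in 3 of 5, at 616 and 726 CPM, red blood cell markers in 3 of 3, at 257 and 180 CPM, and neural markers in 3 of 8, at 327 and 463 CPM, with the 3 Mir124a genes and Mir9-2 at 0 counts. Copies of Mir133a, Mir124a and Mir9 have near-identical mature RNAs, so their counts of 0 do not show absence. The neural sum was higher in replicate 2 (log2 ratio 0.50), as Mir181a-2 was, with Mir128-1 at 0.60 and Mir128-2 at 0.99 but Mir137 at 0.13. The red blood cell sum was lower (-0.52), as Mir181b-2 was, with Mir451a at -0.65 and Mir144 at -0.70 but Mir486 at 0.67. The sums of all other lists were also higher in replicate 2, at a log2 ratio of 0.24 for white blood cells and 0.17 for skeletal muscle. It was 0.17 for limb mesenchyme and cartilage, 0.07 for Mir126a and 0.03 for ectoderm. Not all genes of these lists rose. Of the detected muscle markers, Mir206 was higher (0.19), but Mir208b (-0.07), Mir133b (-0.11) and Mir499 (-0.56) were lower. Of mesenchyme and cartilage markers, Mir214 (0.30) and Mir455 (0.53) were higher, but Mir140 (-0.09), Mir199b (-0.20), Mir199a-2 (-0.53) and Mir199a-1 (-0.16) were lower. Of the detected white blood cell and ectoderm markers, only Mir155 (-0.01), Mir205 (-0.03) and Mir141 (-0.44) were lower. The part of any of these cell types in the ratios of the members was not tested.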

How the data were processed

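Small RNA of 2 limb pools was sequenced by the submitters. Each deposited table lists raw counts for microRNA genes, in columns without names that were read, from the values, as both strands, the gene's own strand and the other strand. Reads were placed on mm10 and counted over GENCODE M4 genes, per the README files deposited with the libraries. No source used here gives the aligner, the counter or the trimming and mismatch settings. Rows without a gene (4 per table) entered no total; gene counts were 42.5% of all reads in replicate 1 and 37.0% in replicate 2.

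Own-strand counts were divided by the library's gene total to give CPM. Identifiers were matched without version to GENCODE M21 (GRCm38, also called mm10), and 1894 of 1973 matched, all 6 members included. The row of Mir181c carries an older identifier version than M21, so its extent may differ from the coordinates given. Mature sequences came from the RefSeq table (GRCm38.p6) for all 6 members, and hairpins for 5, all but Mir181c; 20-base windows were searched on both strands in the 2202 hairpins of GENCODE M21, since no genome was used.

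Genes reaching 10 counts over both libraries were tested with SciPy 1.17.1 (exact binomial test) and edgeR 4.0.16 under R 4.3.3 (negative binomial exact test across all genes, common dispersion from an intercept-only fit), both with Benjamini-Hochberg adjustment at 0.05. A quasi-likelihood test could not be fitted with 1 library on each side. DESeq2 1.42.0 gave alternative size factors. The other named genes are all outside the family. They are the nearest gene to each member in level and the 3 pairs of neighbours with the largest difference. The members, lists and comparisons were chosen with earlier results of these data known.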

Additional observations from a re-analysis of the deposited data

How the results depend on the processing

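With all reads of the tables as the total in place of gene counts, the levels fell to 2411 CPM for both Mir181c and Mir181d, 977 for Mir181b-2, 848 for Mir181a-1, 358 for Mir181a-2 and 13.3 for Mir181b-1. The shares fell likewise to 0.702% for the family, 0.482% for Mir181c and Mir181d, 0.133% for Mir181a-2 and Mir181b-2, and 0.0861% for Mir181a-1 and Mir181b-1; the alternative's larger total sets this. Counting both strands moved Mir181a-1 to 2079 CPM and its cluster to 0.211%, more than their small SD. Levels under TMM scaling or DESeq2 size factors moved by less than the SD. With 1 replicate left out, the log2 ratio of Mir181a-2 to Mir181b-2 ranged from -2.14 to -0.71, that of Mir181a-1 to Mir181b-1 from 5.76 to 6.32, and that of Mir181c to Mir181d from -0.014 to 0.019.

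The number of genes called between the libraries was 182 by the binomial test and 0 by edgeR's negative binomial test. The latter also adds a spread estimated from the same 2 libraries, so its lack of calls does not show equal levels. In that test's fit, with TMM factors from the tested genes only, the log2 ratio of Mir181a-1 was 0.0029 against -0.013. With TMM factors from all genes it was -0.033, and with DESeq2 size factors -0.035. Mir181a-1 was called in none of these. The calls of the other 5 members held under both scalings and with no filter, and ended in the negative binomial test. Within 1 kb, where Mir181a-2 and Mir181b-2 do not form a pair, their ratios could not be ranked.

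With 2 libraries an SD rests on 1 difference. No paired analysis was possible because the design has 1 group.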
